A study of Mus musculus with 4 samples.

Results

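The 10 genes described here belong to T cells and NK-type lymphocytes, such as those within the intestinal epithelium, though bulk RNA gives no position. They are Gzma, Gzmb, Cd3e, Cd3g, Cd8a, Cd7, Itgae, Nkg7, Klrd1 and Cd160, chosen by name with no cut on their level, and all 10 were found by gene ID among the 17505 genes of the table. They were measured in the intestines of C57BL/6 mice 3 days after 10 Gy of abdominal X-rays, in 2 wild-type (WT) and 2 Vil-CREPT-KO libraries. In Vil-CREPT-KO mice the gene for CREPT (Rprd1b), a protein that binds RNA polymerase II, is deleted by a Cre recombinase under the villin promoter, which is active in intestinal epithelial cells, so the lymphocytes themselves keep the gene. Both groups were irradiated, with male and female mice aged 6 to 8 weeks in use. The labels call the tissue intestine without a segment, and the study's text speaks of intestines in one place and of crypts in another. The libraries are described as from 2 mice per genotype, while the labels do not name the animal behind each library, so a p-value here reflects the spread between 2 samples a group.

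Intraepithelial lymphocytes are T cells, with some innate lymphocytes, that sit between the epithelial cells above the basement membrane. Many of those in the mouse small intestine carry CD8 as a pair of alpha chains, hold cytotoxic granules ready for release, and stay in place because the integrin CD103 binds E-cadherin on epithelial cells. They are known for surveying stressed or infected epithelium and for killing cells by granule release.

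The granzymes, the CD3 chains and Nkg7 act together in cytotoxic T cells, and like all 9 tested members lay below WT. The stretches of 150 bases before the start sites of these 5 members are shown first. They are RefSeq sequences of GRCm38.p6, written 5′ to 3′ along the gene's own strand. Capitals mark matches, on either strand, to any of 5 short motifs: TGTGGT (bound by Runx factors), TCACAC (T-box factors), TGANTCA (AP-1), CAGGTG (an E-box) and CAGGAA (ETS factors). No 2 capital runs overlap. Gzma lies at chr13:113100982-113101131 and Gzmb at chr14:56262335-56262484, both on the minus strand. Cd3e lies at chr9:45009612-45009761 and Cd3g at chr9:44980432-44980581, both on the minus strand, and Nkg7 lies at chr7:43436988-43437137 on the plus strand.
Gzma: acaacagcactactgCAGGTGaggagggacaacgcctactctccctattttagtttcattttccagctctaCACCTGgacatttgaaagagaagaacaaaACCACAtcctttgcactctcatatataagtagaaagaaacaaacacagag
Gzmb: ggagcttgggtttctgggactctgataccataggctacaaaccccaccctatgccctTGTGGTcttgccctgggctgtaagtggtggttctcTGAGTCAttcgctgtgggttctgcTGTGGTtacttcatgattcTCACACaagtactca
Cd3e: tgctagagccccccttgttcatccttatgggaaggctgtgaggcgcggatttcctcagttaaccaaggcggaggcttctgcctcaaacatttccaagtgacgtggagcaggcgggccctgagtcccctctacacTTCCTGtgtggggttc
Cd3g: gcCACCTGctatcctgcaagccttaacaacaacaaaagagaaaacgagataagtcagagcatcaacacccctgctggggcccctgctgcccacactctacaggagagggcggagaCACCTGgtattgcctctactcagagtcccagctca
Nkg7: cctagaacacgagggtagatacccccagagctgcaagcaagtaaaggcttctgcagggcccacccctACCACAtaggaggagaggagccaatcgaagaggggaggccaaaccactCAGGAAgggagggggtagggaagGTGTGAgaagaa

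Runx and T-box factors are known regulators of cytotoxic lymphocyte genes, and E-box and ETS proteins of T cell receptor genes. RefSeq promoters, from 250 bases before to 50 bases after a start site, were at hand for 7 members (8 promoters, since Cd160 has 2), and not for Cd7, Itgae and Klrd1. The Runx motif stood in 5 of the 8 promoters (those of Gzma, Gzmb, Nkg7 and Cd160) and in 16.8% of all 32817 mouse promoters of this length. The T-box motif stood in 4 (Gzmb, Nkg7 and Cd160) against 14.5% of all promoters, and the E-box in 4 (Gzma, Cd3e, Cd3g and Cd160) against 20.2%. The ETS motif stood in 3 (Cd3e, Nkg7 and Cd160) against 30.6%, and AP-1 in 1 (Gzmb) against 7.8%. The printed stretch of Gzmb held 4 matches and that of Cd3e held 1. The promoter of Cd8a, which also lay below WT and is not printed, held none. A match describes the letters in these windows and is no evidence of binding.

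The libraries held an estimated 16900000 to 17800000 fragments each, with 16314 to 16499 genes above 0. This depth is a rough value, since only gene estimates inside a preset band were kept. Groups were compared with limma's linear model on log2(FPKM + 1), where FPKM is fragments scaled by transcript length and sequencing depth. With Benjamini-Hochberg adjustment over all tested genes, a call needed an adjusted p under 0.05 together with a log2 fold change (Vil-CREPT-KO relative to WT) beyond 1 in either direction. Rprd1b, the deleted gene (gene ID 70470, GRCm38 chromosome 2, 158028475 to 158078207), had 5.99 and 7.19 FPKM in WT 1 and 2, and its Vil-CREPT-KO values were 4.01 and 3.93 FPKM. Its log2 fold change of -0.61 (SE 0.15, adjusted p = 0.129) was not called. The groups also stood apart in stomach-type genes: 11 of 11 mucous genes of the stomach and Brunner's glands fell (4 without WT 1, 6 without WT 2), from 6.91% and 7.39% of the summed FPKM in WT to 0.0047% and 0.0203% in Vil-CREPT-KO. The share of stomach or upper duodenum in a sample and the genotype thus cannot be told apart, and their part in the levels of the lymphocyte genes was not tested. The duodenal gene Pdx1, named after its values were seen, had 43.21 and 41.03 FPKM in WT, and differed between Vil-CREPT-KO 1 (1.42 FPKM) and Vil-CREPT-KO 2 (27.68 FPKM). In the list of regional genes that holds Pdx1, 0 of 9 tested genes were called (2 higher and 1 lower at an unadjusted p under 0.05), and without Vil-CREPT-KO 2 there were 6. Of 9 epithelial genes 0 were called (2 higher and 0 lower at an unadjusted p under 0.05), with Krt8, a keratin of simple epithelia, at 1785.76 and 1783.14 FPKM in WT, beside 2938.43 and 2330.43 FPKM in Vil-CREPT-KO.

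Since FPKM is per length, the members can be set side by side. In WT, the 2 granzymes made up 63.58% and 59.69% of the summed FPKM of the 10 genes, against 51.26% and 54.93% in Vil-CREPT-KO. The sum itself was 136.77 and 102.12 FPKM in WT 1 and 2, against 49.34 and 57.8 FPKM in Vil-CREPT-KO 1 and 2, so it was low in both Vil-CREPT-KO libraries. Ordered by the mean over the 4 libraries, Gzma came first, followed by Cd7, Gzmb, Cd3g, Nkg7, Cd8a, Cd3e, Klrd1, Itgae and Cd160. Several neighbours in this order were not separated by the spread between libraries: in WT the values of Cd7 and Gzmb, of Nkg7 and Cd8a, of Cd8a and Cd3e, and of Klrd1 and Itgae overlapped. Gzma stood above all others in every library and Cd160 below all others. In bulk RNA, fewer lymphocytes and less RNA per lymphocyte cannot be told apart.

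**Figure D1:**
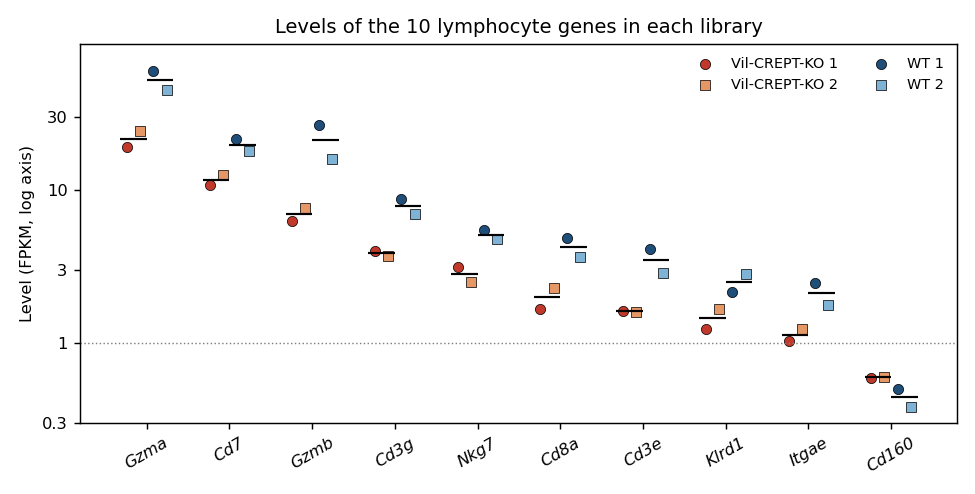
Level of each of the 10 lymphocyte genes in FPKM (log axis) in Vil-CREPT-KO 1 and 2 (red and orange) and WT 1 and 2 (dark and light blue); short lines are group means and the dotted line is the mean of 1 FPKM needed for the test. For 9 genes both Vil-CREPT-KO points lie below both WT points, and for Cd160 they lie above, at 0.59 and 0.6 against 0.5 and 0.38 FPKM.

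The comparison asks how these lymphocyte genes stood when CREPT was missing from the epithelium during regeneration. For 9 of the 10 genes each Vil-CREPT-KO library was below each WT library, with WT means 1.70-fold to 3.06-fold higher. By fold Gzmb and Gzma came first, followed by Cd3e, Cd8a, Cd3g, Itgae, Nkg7, Klrd1 and Cd7. Cd160 alone was no lower in Vil-CREPT-KO. Among all 11621 tested genes, 22.1% had both Vil-CREPT-KO values below both WT values.

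None of these differences passed the test. Of the 9 members tested with limma, 0 were called, where 2.07% of all tested genes were called in either direction and 1.69% were called lower. All 9 had an unadjusted p under 0.05 and were lower, as did 10.1% of all tested genes, and all 9 of the 95% intervals of the fold change excluded 0. The median log2 fold change of the 9 was -0.77, beside 0.06 over all tested genes. With the mucous genes taken out of the scaling both medians moved down, to -0.85 for the 9 and -0.04 over all tested genes. With 2 libraries against 2, an exact permutation test of a single gene cannot go below p = 0.33, so the single-gene p-values rest on variance shared across genes.

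Among the cytotoxic effectors, Gzma (gene ID 14938, GRCm38 chromosome 13, 113093824 to 113100981) encodes granzyme A, a trypsin-like protease that enters the target cell. It measured 60.36 and 45.04 FPKM in the WT libraries and 19.04 and 24.12 FPKM in those of Vil-CREPT-KO. The lower WT library thus stood 20.92 FPKM above the higher Vil-CREPT-KO library, more than the 15.32 FPKM between the WT libraries. The means were 21.6 ± 3.59 against 52.7 ± 10.8 FPKM (SD, n = 2), 2.44-fold higher in WT. The log2 fold change of Gzma was -1.24 (SE 0.21, 95% interval -1.79 to -0.70, adjusted p = 0.0636 with limma).

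Gzmb (14939, chromosome 14, 56258836 to 56262334) encodes granzyme B, the protease that activates caspases in the target cell. It had 26.6 and 15.92 FPKM in WT, and its Vil-CREPT-KO values were 6.25 and 7.63 FPKM. The groups did not overlap, but the 10.68 FPKM between the WT libraries exceeded the 8.29 FPKM between the groups. Gzmb had the largest fold of the 10 genes, 3.06-fold higher in WT by the means of 21.3 ± 7.55 and 6.94 ± 0.976 FPKM (SD, n = 2). Its log2 fold change was -1.45 (SE 0.27, 95% interval -2.14 to -0.76, adjusted p = 0.0749 with limma). Without Vil-CREPT-KO 2, both granzymes were called, at log2 fold changes of -1.41 for Gzma (adjusted p = 0.0128) and -1.58 for Gzmb (adjusted p = 0.0191). The adjusted p over all alternatives ran from 0.0128 to 0.404 for Gzma and from 0.0191 to 0.375 for Gzmb.

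Nkg7 (72310, chromosome 7, 43437138 to 43438246) encodes a membrane protein of cytotoxic granules needed for their release. It stood at 5.43 and 4.74 FPKM in WT, with 3.13 and 2.5 FPKM in Vil-CREPT-KO, so the groups stood 1.61 FPKM apart, with 0.63 and 0.69 FPKM between the libraries within each. The WT mean was 1.81-fold higher, and the log2 fold change was -0.68 (SE 0.16, adjusted p = 0.123 with limma). Unlike the granzymes, Nkg7 was higher in Vil-CREPT-KO 1 than in Vil-CREPT-KO 2.

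The invariant chains Cd3e and Cd3g carry the signal of the T cell receptor into the cell, and their genes lie close together on chromosome 9. Cd3e (12501, 44998735 to 45009663) measured 4.09 and 2.87 FPKM in the WT libraries and 1.62 and 1.59 FPKM in those of Vil-CREPT-KO. Cd3g (12502, 44969572 to 44980431) had 8.71 and 6.96 FPKM in WT, and its Vil-CREPT-KO values were 3.99 and 3.71 FPKM. For both chains the Vil-CREPT-KO libraries nearly coincided, 0.03 FPKM apart for Cd3e and 0.28 FPKM apart for Cd3g, while the WT libraries stood 1.22 and 1.75 FPKM apart. The WT means were 2.17-fold and 2.04-fold higher. The log2 fold change was -0.77 for Cd3e (SE 0.19, adjusted p = 0.126) and -0.86 for Cd3g (SE 0.16, adjusted p = 0.0776 with limma).

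Cd8a (12525, chromosome 6, 71373427 to 71379171) encodes the alpha chain of the CD8 co-receptor, which binds MHC class I. It stood at 4.87 and 3.62 FPKM in WT, with 1.67 and 2.29 FPKM in Vil-CREPT-KO, without overlap, and the WT mean was 2.14-fold higher. Its log2 fold change was -0.81 (SE 0.20, adjusted p = 0.127 with limma). The beta chain Cd8b1, named after its values were seen, measured 0.8 and 0.08 FPKM in the WT libraries and 0.54 and 0.24 FPKM in those of Vil-CREPT-KO, so its groups overlapped. Cd8b1 was thus below Cd8a in every library, at a ratio of 0.323 and 0.105 in Vil-CREPT-KO and of 0.164 and 0.0221 in WT.

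Cd7 (12516, chromosome 11, 121036747 to 121039478) encodes an immunoglobulin-like surface protein of T and NK cells. It had 21.6 and 17.98 FPKM in WT, and its Vil-CREPT-KO values were 10.79 and 12.45 FPKM, and the 5.53 FPKM between the groups exceeded the spread within each. The WT mean was 1.70-fold higher, the smallest fold of the 9 genes, with a log2 fold change of -0.72 (SE 0.16, adjusted p = 0.110 with limma).

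Itgae (16407, chromosome 11, 73090505 to 73147449) encodes CD103, the integrin chain that holds these cells to E-cadherin. It stood at 2.46 and 1.78 FPKM in WT, with 1.02 and 1.24 FPKM in Vil-CREPT-KO. The groups did not overlap, but the 0.68 FPKM between the WT libraries was wider than the 0.54 FPKM between the groups. The WT mean was 1.88-fold higher, and the log2 fold change was -0.54 (SE 0.18, 95% interval -1.01 to -0.08, adjusted p = 0.200 with limma).

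Klrd1 (16643, chromosome 6, 129588092 to 129598775) encodes CD94, the partner chain of NKG2 receptors on NK cells and some T cells. It measured 2.15 and 2.83 FPKM in the WT libraries and 1.24 and 1.67 FPKM in those of Vil-CREPT-KO, the only one of the 9 genes with its highest value in WT 2. The gap of 0.48 FPKM between the groups was smaller than the 0.68 FPKM between the WT libraries. The WT mean was 1.71-fold higher, with a log2 fold change of -0.51 (SE 0.19, 95% interval -0.98 to -0.03, adjusted p = 0.227 with limma). Klrd1 also rested on few fragments, near 34 and 44 in WT against 20 and 27 in Vil-CREPT-KO by an estimate from depth and transcript length, against 338 to 1046 for Gzma.

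Cd160 (54215, chromosome 3, 96798763 to 96829351) encodes a lipid-anchored receptor that binds HVEM, the product of Tnfrsf14, on epithelial cells. It had 0.5 and 0.38 FPKM in WT, and its Vil-CREPT-KO values were 0.59 and 0.6 FPKM, below the mean of 1 FPKM needed for the test. Both Vil-CREPT-KO values lay above both WT values, by 0.09 FPKM, on an estimated 17 to 27 fragments a library. No test was made of this gene, and its level is too low for a statement on direction.

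**Figure D2:**
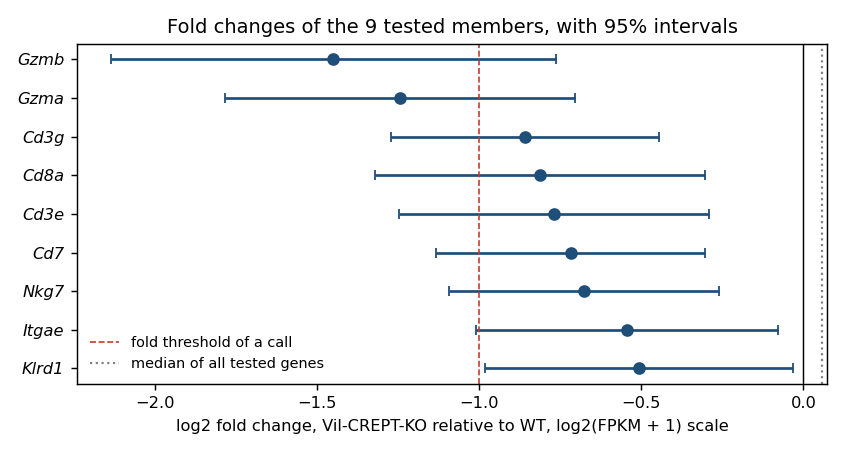
Log2 fold change of the 9 tested genes (points), Vil-CREPT-KO relative to WT on the log2(FPKM + 1) scale, with 95% intervals from limma; the dashed line is the fold threshold of a call at -1 and the dotted line the median of all tested genes at 0.06. All 9 intervals lie below 0, and only the points of Gzmb (-1.45) and Gzma (-1.24) lie beyond the threshold.

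The 9 genes also differed alike between the WT libraries. WT 1 was above WT 2 for 8 of the 9, with Klrd1 as the exception, and the WT libraries stood further apart than the Vil-CREPT-KO libraries for all 9 in FPKM. Between the Vil-CREPT-KO libraries there was no shared order, with Cd3e, Cd3g and Nkg7 higher in Vil-CREPT-KO 1 and the other six higher in Vil-CREPT-KO 2. The mean profile of the 9 genes, in log2(FPKM + 1) centred over the libraries, was 0.565 and 0.277 in WT against -0.484 and -0.358 in Vil-CREPT-KO. Cd8a lay closest to it, at a root mean square distance of 0.0668 over the 4 libraries, and Gzmb farthest at 0.341.

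Among all other genes, the 5 with the most similar profile were Syce2 (distance 0.0389), Slfn9 (0.0476), Clmn (0.049), Cdk14 (0.0529) and Cidea (0.0559). Syce2, a component of the synaptonemal complex of meiotic chromosomes, stood at 4.02 and 3.01 FPKM in WT, with 1.42 and 1.78 FPKM in Vil-CREPT-KO. Likeness over 4 libraries is a description only. Of the 5 genes 0 were called (adjusted p from 0.0758 to 0.115 with limma).

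Levels relative to other genes of the same library describe the members free of library scaling, and were not tested. Relative to Ptprc (CD45, carried by all leukocytes), the same 9 genes were lower in both Vil-CREPT-KO libraries than in both WT libraries. The ratio of Cd3e to Ptprc was 1.47 and 0.947 in WT against 0.372 and 0.385 in Vil-CREPT-KO, and that of Gzmb was 9.57 and 5.25 against 1.43 and 1.85. The gap was thus wider than in FPKM, since Ptprc measured 2.78 and 3.03 FPKM in the WT libraries and 4.36 and 4.13 FPKM in those of Vil-CREPT-KO. The ratio of Cd160 to Ptprc overlapped between the groups. Relative to the epithelial genes Epcam and Fabp2 the 9 genes were again lower without overlap, and relative to Vil1 all but Klrd1 were.

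Relative to Cd3e, most members showed no such gap. The ratio of Gzma to Cd3e was 14.8 and 15.7 in WT against 11.8 and 15.2 in Vil-CREPT-KO, and the ratios of Cd3g, Cd8a, Nkg7 and Klrd1 to Cd3e overlapped as well. Gzmb was the exception on the low side, at 6.5 and 5.55 in WT against 3.86 and 4.80 in Vil-CREPT-KO. On the other side, Cd7 stood at 5.28 and 6.27 in WT against 6.66 and 7.83 in Vil-CREPT-KO. Itgae stood at 0.602 and 0.620 in WT against 0.630 and 0.780 in Vil-CREPT-KO. Its groups nearly touched, while Cd3e alone had an estimated counting error of 15.4% in Vil-CREPT-KO 1. Relative to Cd3g, Itgae overlapped, at 0.2824 and 0.2557 in WT against 0.2556 and 0.3342 in Vil-CREPT-KO, while Cd7 was again higher. The ratio of Cd160 to Cd3e was 0.122 and 0.132 in WT against 0.364 and 0.377 in Vil-CREPT-KO. It rests on too few fragments for a statement on direction.

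**Figure D3:**
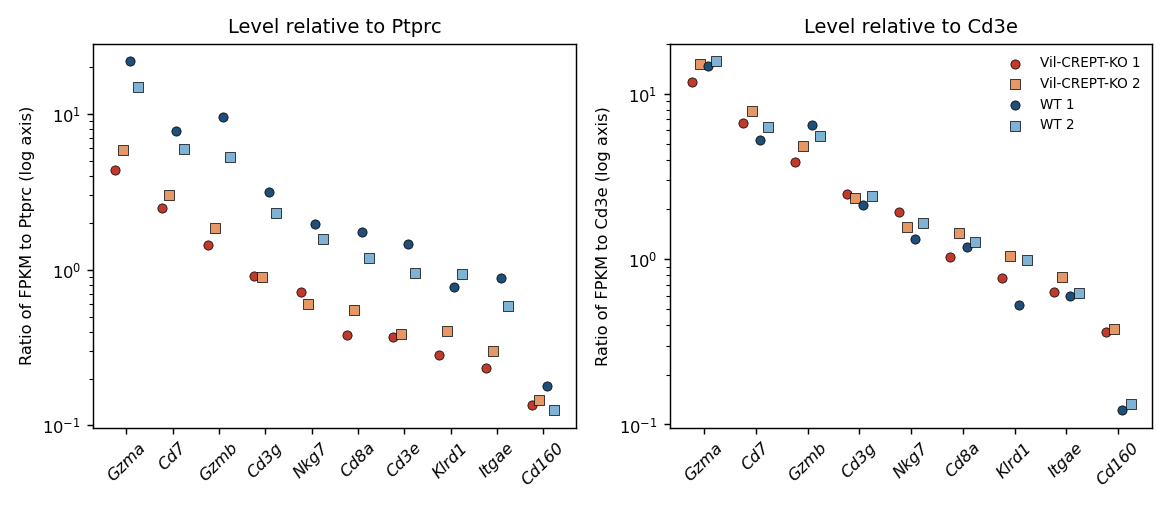
Ratio of each gene's FPKM to that of Ptprc (left) and of Cd3e (right) in each library, both on log axes, with libraries as marked. Relative to Ptprc 9 genes are lower in both Vil-CREPT-KO libraries. Relative to Cd3e 5 of 9 genes overlap between the groups, with Gzmb lower and Cd7 higher in Vil-CREPT-KO. The groups of Itgae nearly touch, at 0.620 in WT 2 and 0.630 in Vil-CREPT-KO 1. The points of Cd160 rest on an estimated 17 to 27 fragments a library, too few for a direction.

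Of 22 other genes of the T cell receptor complex and its signalling, 8 were tested and 0 were called (2 higher and 0 lower at an unadjusted p under 0.05 with limma), with a median log2 fold change of 0.17. Of these 8, both Vil-CREPT-KO values were lower than in WT for 2 and higher for 4. Over all tested genes 22.1% were lower in this way, and the share that was higher was not counted. The 3 most abundant were Tcf7, a transcription factor of T cells, at 2.21 and 2.74 FPKM in WT against 3.16 and 2.9 in Vil-CREPT-KO, the adaptor Lcp2 at 1.62 and 1.53 against 2.61 and 3.05, and the kinase Fyn at 1.53 and 1.74 against 2.91 and 1.85. None of the 3 was lower in Vil-CREPT-KO. Of genes named after their values were seen, the CD3 chain Cd3d had 1.5 and 1.44 FPKM in WT, and its Vil-CREPT-KO values were 1.3 and 0.82 FPKM, with a log2 fold change of -0.27 (adjusted p = 0.453). The kinase Lck, at 1.82 and 1.4 FPKM in WT against 1.09 and 1.2 in Vil-CREPT-KO, had a log2 fold change of -0.28 (adjusted p = 0.400). Cd247, the zeta chain of the receptor, and the kinase Zap70, both under the filter, were also lower in both Vil-CREPT-KO libraries, while Rhoh, Txk and Sh2d1a, under the filter too, were higher in both. Themis, needed for T cell development, stood out at 1.28 and 1.37 FPKM in WT against 0.06 and 0.05 in Vil-CREPT-KO, and was called where no filter on low values was set.

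Among 18 further genes of cytotoxic granules and effectors, 12 were tested, 1 fell and 1 rose (4 lower and 4 higher at an unadjusted p under 0.05 with limma), with a median log2 fold change of -0.06. Rab27a, a GTPase that docks cytotoxic granules and those of other secretory cells, fell from 22.75 and 17.67 FPKM in WT to 6.79 and 6.01 FPKM in Vil-CREPT-KO, a log2 fold change of -1.51 (SE 0.18, adjusted p = 0.0268 with limma). Ccl3, a chemokine of lymphocytes and myeloid cells, rose from 0.99 and 0.87 FPKM in WT to 3.8 and 3.69 FPKM in Vil-CREPT-KO, a log2 fold change of 1.30 (SE 0.15, adjusted p = 0.0257). Both calls were lost without WT 1 (adjusted p = 0.291 for each) and without WT 2 (0.187 and 0.232). Without a filter on low values both were lost as well (0.0695 for Rab27a and 0.0623 for Ccl3), and with a pseudocount of 5 the log2 fold change of Ccl3 was 0.56, short of a call. Prf1, the pore protein that acts with the granzymes, was only at 0.16 and 0.17 FPKM in WT against 0.27 and 0.28 in Vil-CREPT-KO, and Ifng was at 0.09 FPKM in 1 library and at 0 in the others. Ccl5, a chemokine of cytotoxic lymphocytes named after its values were seen, stood at 40.24 and 31.08 FPKM in WT, with 24.37 and 19.02 FPKM in Vil-CREPT-KO, the same side as the members, with a log2 fold change of -0.69 (adjusted p = 0.162). Xcl1 (log2 fold change -0.67, adjusted p = 0.124 with limma) and Serpinb9 (-0.78, adjusted p = 0.239), also named after their values were seen, lay on that side too. Srgn, the granule proteoglycan and the most abundant gene of the list, lay on the other side, at 25.23 and 27.06 FPKM in WT against 58.47 and 35.74 in Vil-CREPT-KO (log2 fold change 0.78, adjusted p = 0.194), as did Ccl4 and Serpina3g, also named after their values were seen.

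The defining genes of NK cells were near 0. Ncr1, the receptor NKp46, measured 0.11 and 0.08 FPKM in the WT libraries and 0.11 and 0.19 FPKM in those of Vil-CREPT-KO, and Klrb1c, Klrk1, Klrc1 and Eomes did not exceed 0.23 FPKM in any library. Of 20 NK receptor and adaptor genes only 4 were tested, and 0 were called (2 higher and 0 lower at an unadjusted p under 0.05 with limma). The 3 most abundant, Fcer1g, Tyrobp and Il2rb, are not restricted to NK cells. Fcer1g and Tyrobp, adaptors that myeloid cells share, were higher in both Vil-CREPT-KO libraries. Il2rb was lower in both, at 3.37 and 2.46 FPKM in WT against 1.98 and 2.18 in Vil-CREPT-KO (log2 fold change -0.34, adjusted p = 0.356 with limma). By these markers the 10 genes are described as lymphocyte genes, because the genes that define NK cells were near 0. Of 12 helper and regulatory T cell genes 2 were tested and 0 called (0 at an unadjusted p under 0.05 with limma), with Cd4 at 1.52 and 1.75 FPKM in WT against 1.57 and 2.05 in Vil-CREPT-KO, and Foxp3 at no more than 0.08 FPKM.

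Genes of homing and tissue residency showed 0 calls among 10 tested of 19 (1 higher and 0 lower at an unadjusted p under 0.05 with limma). Itgb7, the chain that pairs with Itgae, named after its values were seen, had 1.38 and 1.09 FPKM in WT, and its Vil-CREPT-KO values were 1.4 and 1.21 FPKM, so unlike those of Itgae its groups overlapped. On the epithelial side, 0 of 16 tested partner genes of these lymphocytes were called (1 higher and 3 lower at an unadjusted p under 0.05). Cdh1, E-cadherin and the ligand of Itgae, stood at 198.63 and 176.43 FPKM in WT, with 275.01 and 205.09 FPKM in Vil-CREPT-KO (log2 fold change 0.34, adjusted p = 0.425). H2-Q1, an MHC class I gene, was at 216.56 and 198.06 FPKM in WT against 143.54 and 203.25 in Vil-CREPT-KO, so its groups overlapped. H2-T23, whose product Qa-1 is the ligand of the receptor containing Klrd1, was at 295.93 and 178.51 FPKM in WT against 126.83 and 128.11 in Vil-CREPT-KO, without overlap (log2 fold change -0.85, adjusted p = 0.194). Btnl1, a butyrophilin-like protein that maintains gamma-delta intraepithelial T cells, was named after its values were seen, at 170.83 and 160.04 FPKM in WT against 52.59 and 101.76 in Vil-CREPT-KO (log2 fold change -1.16, adjusted p = 0.156). Without Vil-CREPT-KO 2, Btnl1 was called, as were Btnl2 and the cytokine Il18, also named after their values were seen.

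Genes of most other leukocytes lay on the other side of WT from the members. Shares of all tested genes were counted for the lower direction only. The counts of higher genes in these lists thus have no background share beside them. Of the 9 epithelial genes, 6 were also higher in both Vil-CREPT-KO libraries. Of 12 genes shared by leukocytes, 8 were higher and 1 lower in both Vil-CREPT-KO libraries, with 0 called (5 higher and 1 lower at an unadjusted p under 0.05 with limma) and a median log2 fold change of 0.41. The lower gene was Rac2, a GTPase of blood cells named after its values were seen, at 16.13 and 17.69 FPKM in WT against 7.43 and 5.07 in Vil-CREPT-KO (log2 fold change -1.32, adjusted p = 0.0506). Of the alternatives with all 4 libraries, Rac2 was called with quantile normalization, median centring and robust moderation. It was also called with a filter at 5 FPKM, rescaling without mucous genes and the crossed block. Of 13 macrophage and dendritic cell genes 8 were tested, and 7 of these were higher in both Vil-CREPT-KO libraries. Here 0 were called (6 higher at an unadjusted p under 0.05), with a median of 0.63. The list's summed level was 182.66 to 238.99 FPKM in WT against 295.39 to 418.4 in Vil-CREPT-KO. Itgax, named after its values were seen, had 2.94 and 3.3 FPKM in WT against 7.24 and 7.07 in Vil-CREPT-KO. Its adjusted p was 0.0434 with limma, and only its log2 fold change of 0.986 was short of a call. Among alternatives that kept all 4 libraries, Itgax was called with a pseudocount of 0.1 and with no fold threshold. Genes of B and plasma cells summed to 531.32 to 664.33 FPKM in WT against 851.98 to 998.05 in Vil-CREPT-KO, with 0 of 6 tested called and 5 higher at an unadjusted p under 0.05. Their most abundant gene, Jchain, made up most of that sum. Neutrophil genes summed to 9.13 to 9.97 FPKM in WT against 16.71 to 46.89 in Vil-CREPT-KO, with 0 of 5 tested called (2 higher at an unadjusted p under 0.05) and 4 called without Vil-CREPT-KO 2. Where these cells could hold RNA of the members, their part in the members' levels was not tested. In a list of 12 genes of innate lymphoid and type 17 cells, 4 were tested and only Il1rl1, the receptor of IL-33, was called: it rose from 8.99 and 7.43 FPKM in WT to 21.19 and 21.42 FPKM in Vil-CREPT-KO (log2 fold change 1.28, adjusted p = 0.0268), a call lost without WT 1 (0.279), without WT 2 (0.227), with no filter (0.0623) and with a pseudocount of 5, where the log2 fold change was 0.996.

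Mast cell genes were the other leukocyte list on the side of the members. Of 9 genes, 5 were tested, 4 were lower in both Vil-CREPT-KO libraries, 0 were called (4 lower and 0 higher at an unadjusted p under 0.05 with limma), and the median log2 fold change was -1.16. Mcpt2, a protease of mucosal mast cells, measured 33.48 and 13.02 FPKM in the WT libraries and 7.1 and 8.55 FPKM in those of Vil-CREPT-KO (adjusted p = 0.195). Mcpt4, named after its values were seen, had 2.15 and 1.81 FPKM in WT against 0.45 and 0.23 in Vil-CREPT-KO. Its log2 fold change was -1.16 (adjusted p = 0.0506 with limma). Among alternatives that kept all 4 libraries, Mcpt4 was called with no variance trend, robust moderation and rescaling without mucous genes. Mcpt1, also named after its values were seen, was called among these with the crossed block alone. The list summed to 23.12 to 45.78 FPKM in WT against 12.22 to 13.46 in Vil-CREPT-KO, while the defining genes Cpa3, Tpsb2 and Fcer1a were at or under 0.21 FPKM, with Fcer1a at 0 in 3 libraries. Mast cells can carry granzyme B and Rab27a, and their part in the levels of Gzmb was not tested.

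**Figure D4:**
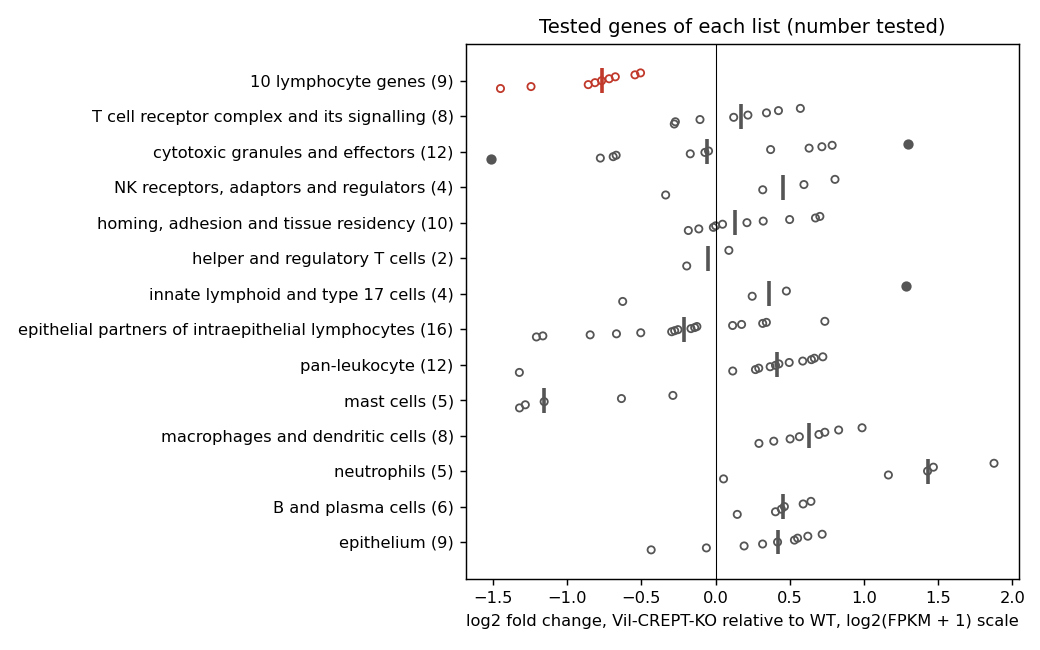
Log2 fold change (Vil-CREPT-KO relative to WT, log2(FPKM + 1) scale) of each tested gene in the 10 lymphocyte genes (red) and in 13 surrounding lists (grey), with the number tested in brackets, filled points for called genes and bars for list medians. The median of the lymphocyte genes is -0.77, that of mast cell genes is -1.16, and those of macrophage, neutrophil, B and plasma cell and pan-leukocyte genes lie above 0.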

How the data were processed

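Intestinal RNA from both genotypes, taken after irradiation, was sequenced on a BGISEQ platform, with 2 libraries per group. The authors deposited 1 table of FPKM values. Per the study's methods, Bowtie2 mapped reads to GRCm38.p6 transcripts and levels came from RSEM, which splits reads that fit several genes by estimation. HISAT (role not given) and mm10 are listed in the submitters' processing notes. For none of these tools is a version given in the sources used here. DESeq2 was the authors' test, and read counts were not used here.

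Of 17505 gene IDs, 17473 matched a RefSeq symbol and 32 did not. Values were used as log2(FPKM + 1), which understates the change of low genes. Genes averaging 1 FPKM or more were tested (11621), and the others were not (5884). The linear model of limma 3.58.1 in R 4.3.3, with a mean-variance trend and moderated variances (2 residual and 3.08 prior degrees of freedom), was two-sided with Benjamini-Hochberg adjustment, and was tested on simulated data. A call needed an adjusted p under 0.05 together with a log2 fold change beyond 1 in either direction, and "rose" and "fell" are used of called genes alone. Folds are ratios of group means in FPKM. Depth came from the steps between values under 0.5 FPKM of 186 genes with transcripts of 400 to 1500 bases. Estimated fragments cover counting error only.

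The members and all lists were chosen with earlier results of these data known. The text names all members and Rprd1b. In each of 15 surrounding lists (206 of 210 genes in the table; Zfp683, Ms4a2, Pax5 and Car1 not analysed here), it names called genes, or else up to 3 of the most abundant, with defining genes near 0, and the 5 genes nearest in profile. Other names were chosen after values were seen. Settings also tried were a pseudocount of 0.1 or 5, filtering at 5 FPKM or not at all, quantile normalization, median centring, rescaling without mucous genes, robust moderation, no variance trend, no fold threshold, a block on the replicate number, and fits without each library in turn. A crossed block was added after seeing the data.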

Additional observations from a re-analysis of the deposited data

How the results depend on the processing

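The 9 tested members were lower in Vil-CREPT-KO under every alternative in which they were tested (139 values over 16 settings), and 135 of these stayed on the same side of the threshold, while 4, those of Gzma and Gzmb without Vil-CREPT-KO 2 and with the crossed block, passed it. Their median log2 fold change of -0.77 was -0.999 with a pseudocount of 0.1, -0.40 with one of 5, which damps low genes more, and -1.05 with a filter at 5 FPKM, which left 4 members. Over all genes, 241 calls became 141 where 5 was added before the log and 78 without a filter, where more genes were tested, and the 14 calls in surrounding lists became 9 with no filter. Leaving out each library in turn, where the lone library is assumed to vary like the others, gave 4 to 911 calls over all genes (4 without WT 1, 6 without WT 2, 444 without Vil-CREPT-KO 1 and 911 without Vil-CREPT-KO 2), 0 to 2 among the members, 4 to 35 in surrounding lists and a median of -0.97 to -0.64 for the members. Same-numbered libraries did not deviate together (correlation -0.264). With 2 libraries a group, this correlation cannot show whether the numbers mark shared handling. With the replicate number as a block, 122 genes and 0 members were called, Ccl3 (adjusted p = 0.0817 with limma) and Il1rl1 (0.073) not among them, and with the crossed block 346 genes and 2 members. The causes of these shifts in calls were not tested. Depth limits Klrd1, Nkg7, Cd3e and Cd160 most, and levels under 1 FPKM were left untested.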
